A study of Mus musculus with 18 samples.

Results

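EBF1 occupied 7815 sites without PAX5 in the deposited binding tables, and 2761 of these (35.3%) lay inside an intron and more than 1000 bp from the nearest annotated transcription start site. These EBF1-only intronic distal sites made up 19.2% of the 14377 sites bound by EBF1, by PAX5 or by both. They were chosen by the authors' position annotation and by the table they stand in, and no ATAC value was used to choose them. The samples were pro-B cells grown from mouse fetal liver of C57BL6/J WT, Ebf1 deficient and Pax5 deficient fetuses (here WT, Ebf1-KO and Pax5-KO), kept on OP9 stromal cells with KIT ligand, FLT3 ligand and IL-7 at 10 ng/ml each. Accessible chromatin was measured by ATAC-seq, in which a transposase cuts open DNA, from 80 K cells (K, 1000 cells) in each of 3 libraries per genotype, and RNA by RNA-seq in 3 further libraries per genotype. Age and sex of the fetuses were not given in the sources used here, nor whether the 3 libraries of a genotype came from separate fetuses or cultures and p-values therefore reflect only how far these libraries vary. EBF1 and PAX5 binding came from published ChIP-seq, so binding was not measured in these libraries.

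EBF1 (early B cell factor 1) is a DNA-binding factor that starts and maintains the B-lineage programme and binds as a dimer to a palindrome. It can bind closed chromatin and open it, and it acts upstream of and together with PAX5, which commits progenitors to the B lineage. Introns hold many enhancers, whose target can be the gene they lie in or a neighbour.

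The sequences of 14 sites are shown because the results return to them: 12 lie in genes with a known role in B cells or progenitors, and the last pair are the largest fall and the largest rise between Ebf1-KO and WT. Each is 200 bases around the peak centre, on the plus strand of mm10 (GRCm38), read from the RefSeq genome of that build. Capitals mark a match to TCCCNNGGG on either strand, which is most of the EBF1 palindrome.
Erg chr16:95428357-95428556: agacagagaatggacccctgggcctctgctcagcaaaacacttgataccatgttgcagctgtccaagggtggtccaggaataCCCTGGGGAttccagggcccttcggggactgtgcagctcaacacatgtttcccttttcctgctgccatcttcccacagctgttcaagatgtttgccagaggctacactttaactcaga
Lyn chr4:3682887-3683086: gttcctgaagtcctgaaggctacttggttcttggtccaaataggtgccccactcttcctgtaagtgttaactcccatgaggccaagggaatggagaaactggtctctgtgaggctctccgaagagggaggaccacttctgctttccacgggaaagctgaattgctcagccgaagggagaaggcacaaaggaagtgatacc
Pou2f1 chr1:165976745-165976944: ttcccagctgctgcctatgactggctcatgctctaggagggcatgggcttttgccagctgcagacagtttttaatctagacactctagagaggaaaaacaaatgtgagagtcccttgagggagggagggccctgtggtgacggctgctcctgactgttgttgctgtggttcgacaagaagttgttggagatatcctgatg
Flt3 chr5:147363048-147363247: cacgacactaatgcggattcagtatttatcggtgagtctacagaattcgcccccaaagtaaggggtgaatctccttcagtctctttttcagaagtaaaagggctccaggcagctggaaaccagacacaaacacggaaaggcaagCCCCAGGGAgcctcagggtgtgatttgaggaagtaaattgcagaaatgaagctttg
Tcf7 chr11:52268697-52268896: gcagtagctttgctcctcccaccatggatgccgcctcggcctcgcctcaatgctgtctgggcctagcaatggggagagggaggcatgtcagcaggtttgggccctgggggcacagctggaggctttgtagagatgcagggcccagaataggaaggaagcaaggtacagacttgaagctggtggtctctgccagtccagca
Foxp1 chr6:99007746-99007945: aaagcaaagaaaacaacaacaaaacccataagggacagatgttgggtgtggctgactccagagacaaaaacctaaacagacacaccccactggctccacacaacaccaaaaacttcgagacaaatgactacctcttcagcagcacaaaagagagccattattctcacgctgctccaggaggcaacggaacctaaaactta
Tcf3 chr10:80423687-80423886: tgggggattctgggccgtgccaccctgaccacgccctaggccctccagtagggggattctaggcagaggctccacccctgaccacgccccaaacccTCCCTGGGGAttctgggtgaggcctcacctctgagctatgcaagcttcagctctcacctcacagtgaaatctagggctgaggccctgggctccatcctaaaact
Runx1 chr16:92621854-92622053: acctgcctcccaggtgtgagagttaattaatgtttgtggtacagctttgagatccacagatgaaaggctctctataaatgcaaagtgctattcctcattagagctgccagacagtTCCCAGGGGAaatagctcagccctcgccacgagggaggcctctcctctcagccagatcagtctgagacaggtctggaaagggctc
Notch1 chr2:26492942-26493141: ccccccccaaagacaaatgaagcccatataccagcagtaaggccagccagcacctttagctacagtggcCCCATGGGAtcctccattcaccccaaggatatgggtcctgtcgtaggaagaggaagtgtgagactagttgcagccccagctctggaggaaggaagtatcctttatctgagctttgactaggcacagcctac
Ebf1 chr11:45002048-45002247: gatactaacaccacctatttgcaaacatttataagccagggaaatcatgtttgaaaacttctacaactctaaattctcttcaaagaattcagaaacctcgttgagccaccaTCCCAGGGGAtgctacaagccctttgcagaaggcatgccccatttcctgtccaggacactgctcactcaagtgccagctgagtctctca
Pax5 chr4:44538377-44538576: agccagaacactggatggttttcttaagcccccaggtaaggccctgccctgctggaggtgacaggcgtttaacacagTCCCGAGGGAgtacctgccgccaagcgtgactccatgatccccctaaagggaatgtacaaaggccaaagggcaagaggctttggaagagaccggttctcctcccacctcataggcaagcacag
Foxo1 chr3:52282860-52283059: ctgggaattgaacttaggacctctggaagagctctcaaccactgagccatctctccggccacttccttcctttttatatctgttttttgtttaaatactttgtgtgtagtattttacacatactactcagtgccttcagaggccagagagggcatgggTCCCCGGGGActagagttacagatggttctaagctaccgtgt
Galntl6 chr8:58586672-58586871: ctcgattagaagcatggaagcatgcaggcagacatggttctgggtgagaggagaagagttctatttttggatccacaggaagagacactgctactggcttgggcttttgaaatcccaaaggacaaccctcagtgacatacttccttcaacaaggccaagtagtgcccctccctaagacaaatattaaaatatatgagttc
Rgs3 chr4:62661505-62661704: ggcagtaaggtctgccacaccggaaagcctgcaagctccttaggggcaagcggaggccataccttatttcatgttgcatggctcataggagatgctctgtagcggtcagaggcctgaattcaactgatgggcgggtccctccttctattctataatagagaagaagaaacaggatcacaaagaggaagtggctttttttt
The letters TCCCNNGGG, searched on both strands, were found in 8 of these 14 windows, and the Ebf1, Pax5, Foxo1, Runx1 and Tcf3 sites held the whole palindrome (TCCC and GGGA with 2 bases between them). The Lyn, Pou2f1, Foxp1 and Tcf7 sites and both extreme sites held no match in this window.

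Over all 2761 members, 1521 windows (55.1%) held TCCCNNGGG, against 4538 of the 14372 bound sites scanned (31.6%). The share was 52.7% of EBF1-only intergenic distal sites, 34.5% of EBF1-only sites near start sites, 32.9% of intronic distal sites bound by both factors and 3.72% of intronic distal sites bound by PAX5 alone. The whole palindrome, which contains TCCCNNGGG, was in 835 members (30.2%) and in 15.3% of all bound sites. In 49.7% of the members with a match, the one nearest the centre lay within 20 bases of it, and this share was 38.4% in the lowest of 4 groups of similar size by ChIP score and 65.0% in the highest. The RUNX-like word TGTGGT was in 22.1% of members and 25.9% of all bound sites, the ETS-like word AGGAAG in 35.0% and 39.6%, and the E-box words CAGCTG and CAGGTG in 18.8% and 18.5% of members, near the 19.2% and 19.7% of all bound sites. A match is a description of the letters and does not show occupancy.

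The members were spread over the 19 autosomes and the X chromosome, from 250 on chromosome 2 to 40 on X. The median distance to the nearest start site was 19413 bp (quartiles 7160 and 46380), and 264 members lay over 100 kb away. The first intron held 953 of them (34.5%). The gene whose intron held the site was also the gene of the nearest start site for 1903 members (68.9%). They lay in 2112 named genes, of which 1664 held 1 site, 319 held 2 and 129 held 3 or more. The authors' annotation placed 576 members (20.9%) in a repeat, of which 271 were SINEs, 120 LTR elements and 94 LINEs. The authors' ChIP peak score ran from 4.77 to 163.3 with a median of 11.5. Just inside the distance limit, the 24 members between 1000 and 1100 bp had a median WT level of 4.97 tags per 10 M, and the 27 EBF1-only intronic sites between 900 and 1000 bp had 7.96.

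The ATAC libraries held 15.3 to 38.6 M tags, and the values are tags per 10 M. Tags in bound sites were 1.52 to 2.31% of the WT libraries, 0.930 to 1.11% of the Ebf1-KO and 0.825 to 1.02% of the Pax5-KO libraries, so the bound sites as a whole were lower in both mutants: the median bound site changed by -0.78 on the log2 scale in Ebf1-KO and by -0.75 in Pax5-KO against WT. TMM scaling, which sets that shift near 0, is therefore given beside the ATAC counts against WT for the members, the lists and the genes with many members. RNA checked the labels: Pax5 RNA was 1314 to 1629 reads per 10 M in WT and 98.6 to 129 in Pax5-KO libraries, and Ebf1 RNA was 3252 to 4454 in WT and 1345 to 1605 in Ebf1-KO libraries, but also 1328 to 1661 in Pax5-KO, while Pax5 RNA was 8.52 to 15.7 in Ebf1-KO. Which exons the Ebf1 allele removes was not given in the sources used here. The 12 pro-B marker genes summed to 27161 to 28358 reads per 10 M in WT, 4204 to 4260 in Ebf1-KO and 8462 to 12230 in Pax5-KO. Marker sums of other cells also moved with genotype: 6 T and NK genes summed to 26.8 to 35.9 in WT, 484 to 529 in Ebf1-KO and 185 to 278 in Pax5-KO (Cd3g and Gzmb were at 0 in all WT libraries), 6 myeloid genes to 33.9 to 37.9, 356 to 467 and 86.3 to 133 (Elane was at 0 in WT), 5 erythroid genes to 3.65 to 5.71, 20.2 to 33.1 and 3.17 to 6.62 (Hba-a1 at 0 in all), and 10 OP9 genes to 140 to 315, 391 to 468 and 81.5 to 236. The Ebf1-KO RNA libraries also differed in sex-linked RNA, with Xist at 41026 to 47861 against 1.58 to 42.8 in the other 6. Y-linked RNA (Uty, Kdm5d, Eif2s3y, Ddx3y) went the opposite way, with 0 to 2.75 per gene in Ebf1-KO against 389 to 1081. By these values the Ebf1-KO RNA read as female and the other 6 libraries as male. Sex and Ebf1 genotype therefore cannot be told apart in the RNA comparisons with Ebf1-KO. The part of the marker and sex-linked differences in the results was not tested. In bulk libraries, fewer cells with an open site and a less open site in each cell cannot be told apart.

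Member sites were open to very different degrees in WT cells. The mean WT level ran from 0.09 to 88.9 tags per 10 M with a median of 6.15. It was at least 10 at 846 members (30.6%), at least 30 at 106, and under 1 at 90. The median member had 7.19, 5.13 and 5.96 tags per 10 M in the 3 WT libraries, 1.95, 2.12 and 1.92 in Ebf1-KO cells, and 3.53, 3.45 and 3.48 in Pax5-KO cells. The WT medians were the highest, the Ebf1-KO medians the lowest, and the 3 groups did not overlap. These medians stand on 11 to 23 tags in WT and 5 to 13 in mutant libraries, so small changes at single sites were not detectable at this depth. Pearson's r between libraries of a genotype over the members was 0.864 to 0.900 in WT, 0.816 to 0.837 in Ebf1-KO and 0.807 to 0.862 in Pax5-KO. Higher ChIP score went with higher WT level across members (Pearson's r 0.405 on log2 values over 2761 sites that share libraries), as a description.

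**Figure D1:**
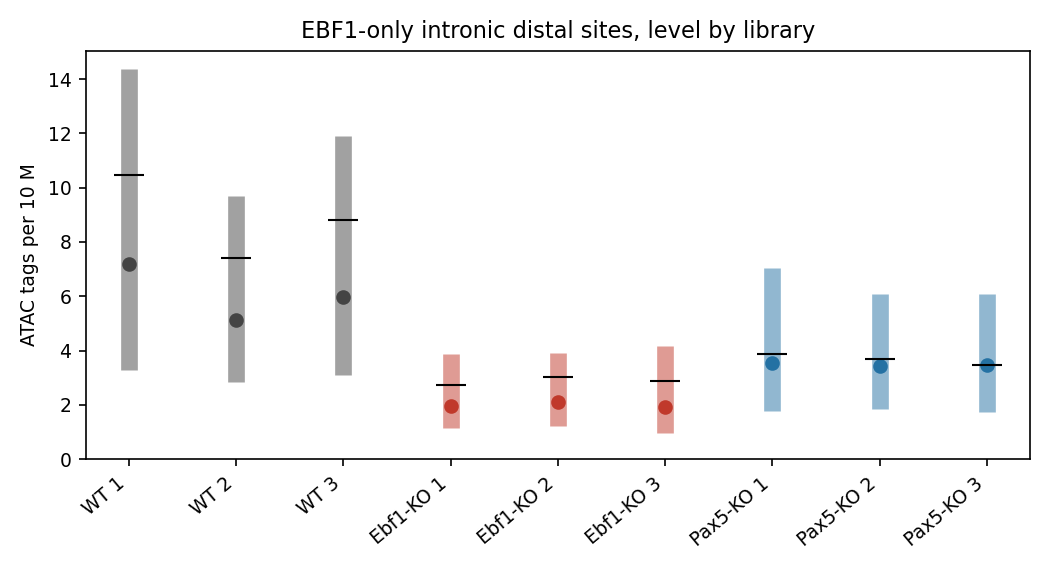
ATAC tags per 10 M (y axis) at the 2761 EBF1-only intronic distal sites in each of 9 libraries (x axis); points are medians, bars run from the lower to the upper quartile, and black lines mark the median of all 14377 bound sites. WT medians sat between 5.13 and 7.19, Pax5-KO medians between 3.45 and 3.53, and Ebf1-KO medians between 1.92 and 2.12.

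Accessibility at the members was lower in Ebf1-KO than in WT far more often than higher under the authors' scaling. Of 2757 members tested (4 had too few tags), 1513 were lower and 49 higher in Ebf1-KO than in WT by limma with Benjamini-Hochberg adjustment over all bound sites (adjusted p under 0.05). Among all 14365 bound sites tested, 51.1% were called lower and 3.28% higher, so the members' 54.9% and 1.78% were close to this background. The median member changed by -0.93 on the log2 scale, which is -0.15 from the median bound site. With TMM scaling 876 members were lower and 305 higher (31.8% and 11.1%, beside 29.7% and 20.4% of all bound sites).

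The largest falls from WT to Ebf1-KO were in introns of genes of varied function. In intron 1 of Galntl6 (chr8:58586636-58586906), a gene for a GalNAc-transferase-like enzyme, the WT libraries had 120.86, 50.14 and 95.55 tags per 10 M and the Ebf1-KO libraries 0.78, 1.21 and 0.96. This was the highest member in WT (log2 fold change -5.42, SE 0.31, adjusted p = 1.4e-27, limma). The largest falls and rises of each comparison were picked only from called sites whose groups did not overlap, so that trait is no result. In intron 9 of Prdm9, which encodes a histone methyltransferase that places meiotic recombination, the values were 82.97, 49.86 and 68.10 in WT and 0.78, 1.82 and 1.60 in Ebf1-KO. In intron 1 of the zinc finger gene Zfp804a they were 60.10, 19.37 and 53.60 against 0.78, 1.21 and 0.00. The other falls of this set, in introns of Tbc1d32, Epha5 (an ephrin receptor) and Fam13a, had log2 fold changes of -4.62, -4.47 and -4.42. These 6 fell under TMM scaling too. The 6 largest rises were in introns of Rgs3, Slco2b1, Tasp1, Zfp827, Map1b and Lmtk2, by 1.85 to 2.21 on the log2 scale. In intron 10 of Rgs3, a regulator of G-protein signalling, the site had 13.07, 6.84 and 12.43 tags per 10 M in WT and 42.05, 55.06 and 59.54 in Ebf1-KO (log2 fold change 2.21, SE 0.27, adjusted p = 8.3e-12, limma). The rises were at sites of modest ChIP score, from 5.52 to 11.3, and only the Lmtk2 site held TCCCNNGGG. The Galntl6 site, the largest fall, held none either. Of all 49 members called higher 24.5% held it, and of the 1513 called lower 53.1%.

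In Pax5-KO the members were again called lower more often than higher under the authors' scaling. Of the 2757 members tested, 1063 were lower and 85 higher than in WT (38.6% and 3.08%), beside 51.5% and 2.11% of all bound sites. The median member changed by -0.54, which is 0.21 above the median bound site. TMM scaling turned this balance, with 347 lower and 475 higher (12.6% and 17.2%), beside 21.3% and 13.8% of all bound sites. So the direction of the members as a group in Pax5-KO depends on the scaling. All bound sites kept more falls than rises. At single sites the falls were large: Plcl2 intron 2 (chr17:50609993-50610263) had 52.92, 29.91 and 45.83 tags per 10 M in WT and 1.76, 1.06 and 0.00 in Pax5-KO (log2 fold change -4.58, SE 0.34, adjusted p = 3.9e-21, limma), and its TMM value was -3.87. The Galntl6 site had 5.29, 2.12 and 1.30 in Pax5-KO and changed by -4.57. The Epha5, Fam13a, Wdfy3 and Acvr1 sites completed the 6 largest falls, with -3.93 to -4.18, and all 6 passed under TMM scaling. The largest rises, 1.54 to 2.03, were in Pttg1ip, Lmtk2, Slc9a9, Pard3, Slc30a7 and Lgr6. Pttg1ip intron 1 had 1.96, 3.70 and 5.44 tags per 10 M in WT, 2.88 to 4.54 in Ebf1-KO cells and 20.11, 17.23 and 14.77 in Pax5-KO cells. Slc30a7 intron 10 had 3.27, 3.13 and 4.92 in WT and 17.28, 11.93 and 9.99 in Pax5-KO.

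**Figure D2:**
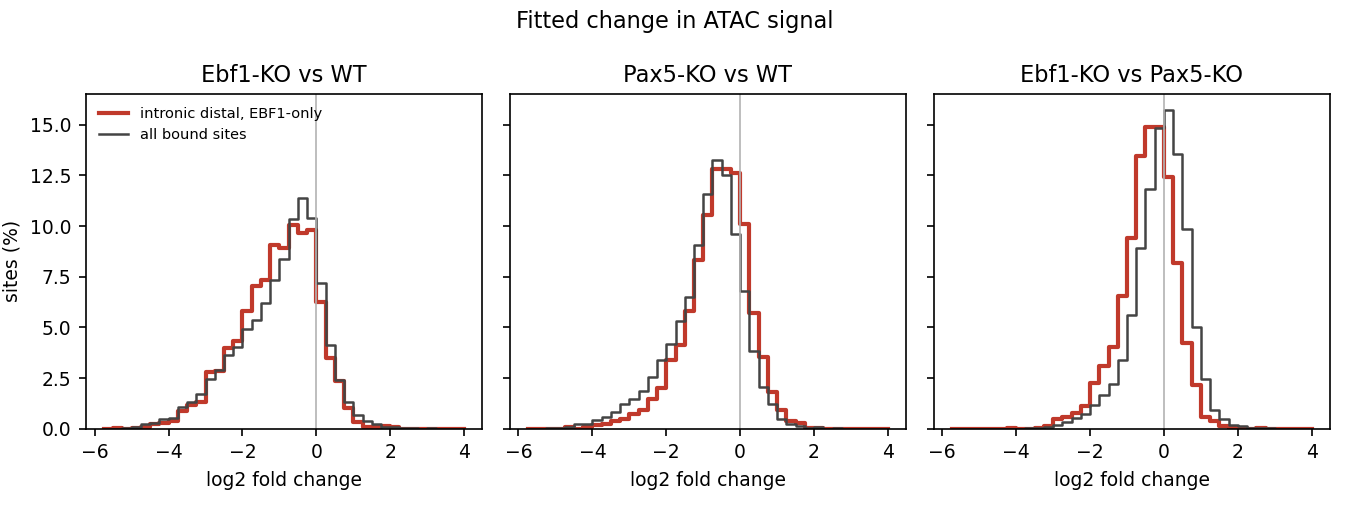
Histograms of the fitted log2 fold change in ATAC signal (x axis, bins of 0.25) as a percent of tested sites (y axis) for 2757 EBF1-only intronic distal sites (red) and 14365 bound sites (grey), one panel per comparison. In Ebf1-KO vs Pax5-KO the median member sat at -0.36 and the median bound site at -0.02.

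The 2 mutants were also set against each other, in a fit in which the WT libraries enter only the estimate of the spread and the filter on low sites. Of the members, 622 were lower and 86 higher in Ebf1-KO than in Pax5-KO (22.6% and 3.12%), beside 12.6% and 9.06% of all bound sites. The median member changed by -0.36. TMM scaling gave 736 lower and 117 higher (26.7% and 4.24%), beside 15.5% and 12.9% of all bound sites. A fit of the mutant libraries alone gave 657 and 105. On autosomes alone 615 were lower and 84 higher (22.6% and 3.09%), beside 12.7% and 8.98% of autosomal bound sites. EBF1-only intergenic distal sites gave 573 lower and 88 higher of 2730, EBF1-only sites near start sites 74 and 219 of 2022, intronic distal sites bound by both factors 165 and 66 of 668, and those bound by PAX5 alone 57 and 354 of 2202. With TMM scaling these were 693 and 137, 106 and 457, 195 and 92, and 84 and 416, in the same order. The differences between these classes were not tested. Without the third Ebf1-KO library 39 members were higher, without the second 56, without the second Pax5-KO library 53 and without the third 47, while the number lower ranged from 496 to 666 over all single libraries left out. Leaving out a WT library gave 592 to 666 lower and 72 to 106 higher.

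The members lower in Ebf1-KO than in Pax5-KO had median levels of 10.2 tags per 10 M in WT, 1.74 in Ebf1-KO cells and 6.58 in Pax5-KO cells. Fmn2 intron 7 (chr1:174652807-174653077), in the gene of an actin-nucleating formin, had the largest such fall, with 0.78, 1.21 and 1.60 in Ebf1-KO cells and 55.38, 41.87 and 25.19 in Pax5-KO cells (log2 fold change -4.20, SE 0.28, adjusted p = 1.1e-22, limma). WT had 59.45, 29.06 and 49.72 there, overlapping Pax5-KO. Phactr3 intron 2 had 4.28, 3.03 and 3.84 in Ebf1-KO cells and 73.72, 37.63 and 35.62 in Pax5-KO cells. Gopc, Tbc1d32, Angpt2 (a ligand of the TIE2 receptor) and Il33 (a cytokine) held the others of this set, by -2.99 to -3.15. The 86 members higher in Ebf1-KO than in Pax5-KO had medians of 16.8, 16.5 and 7.81 in WT, Ebf1-KO and Pax5-KO. Whrn intron 1 had 12.07, 13.61 and 19.85 in Ebf1-KO cells and 3.88, 0.53 and 1.74 in Pax5-KO cells (log2 fold change 2.53). Mfhas1, Pcca, Neb, Prkar2b (a regulatory subunit of protein kinase A) and Asb2 followed, by 1.60 to 2.07. None of these 6 sites held TCCCNNGGG. It was in 18.6% of all 86 members higher in Ebf1-KO than in Pax5-KO and in 59.3% of the 622 lower.

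How strongly EBF1 bound, by the authors' score from another data set, went with this difference. In the lowest of the 4 score groups, 83 of 754 tested members (11.01%) were lower in Ebf1-KO than in Pax5-KO and 39 (5.17%) higher, with a median log2 change of -0.19. In the highest group, 287 of 682 (42.1%) were lower and 10 (1.47%) higher, with a median of -0.70. The share of these calls also rose with the WT level: 37 of 687 (5.39%) were lower in the lowest of 4 groups by WT level (median 1.90 tags per 10 M) and 264 of 690 (38.3%) in the highest (median 18.4), where 55 (7.97%) were higher. The part of tag depth in these shares was not tested. Members with TCCCNNGGG gave 369 lower and 16 higher of 1519 (24.3% and 1.05%), and members without it 253 and 70 of 1238 (20.4% and 5.65%), at median WT levels of 5.09 and 7.58. Members over 50 kb from a start site were called lower in 24.7% of cases and members up to 5000 bp away in 16.6%. The shares were 19.7% lower and 3.15% higher for first-intron sites and 23.9% and 2.79% from the third intron on, and 21.6% and 2.43% for sites in repeats and 22.8% and 3.30% outside them. None of these differences between subsets was tested.

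**Figure D3:**
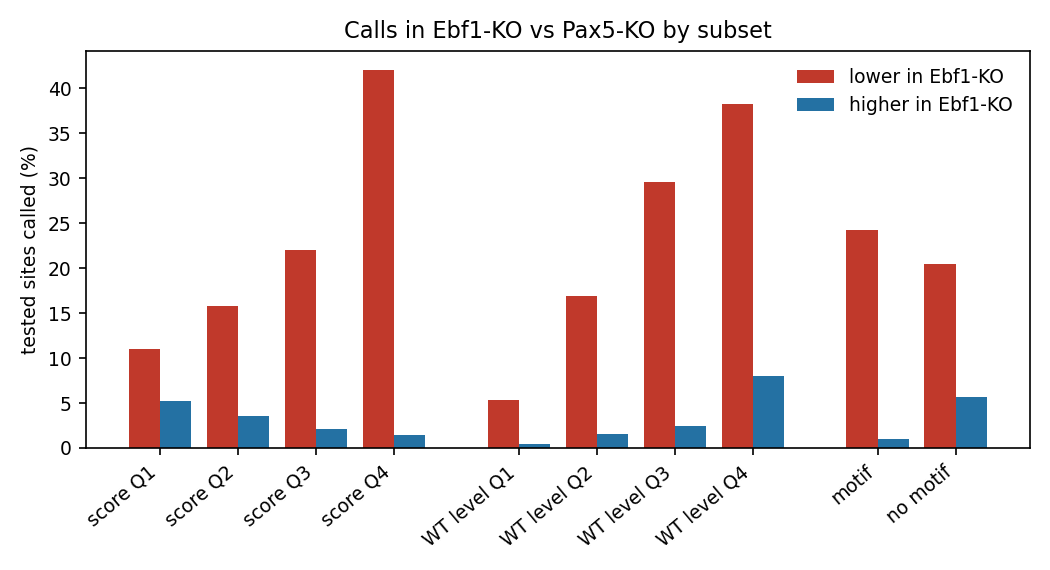
Percent of tested members (y axis) called lower (red) or higher (blue) in Ebf1-KO than in Pax5-KO, in 4 groups of similar size by ChIP peak score and by WT ATAC level (lowest at left), and by presence of TCCCNNGGG (x axis). The share called lower ran from 11.01% to 42.1% over the score groups and from 5.39% to 38.3% over the WT level groups.

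Members of very high ChIP score were moderately open. Slc25a26 intron 3 (score 163.3), in a mitochondrial S-adenosylmethionine carrier gene, had 7.84, 4.84 and 6.73 tags per 10 M in WT, 1.56, 2.12 and 0.64 in Ebf1-KO cells, and 11.99, 10.87 and 7.82 in Pax5-KO cells. Its window held 6 copies of the full palindrome. The Col26a1 and Ccm2 sites had scores of 121.2 and 112.6. These 3 fell from WT to Ebf1-KO, by 1.64 to 2.61 on the log2 scale, also with TMM scaling, and all 3 were lower in Ebf1-KO than in Pax5-KO. The members most open in WT after Galntl6 were in Camk2d, Arrdc3 and Stk11ip. Stk11ip intron 3 had 84.27, 46.15 and 86.49 in WT, 3.89, 4.84 and 6.08 in Ebf1-KO cells, and 37.74, 24.91 and 26.50 in Pax5-KO cells. Arrdc3 intron 1 had 97.99, 45.30 and 83.38 in WT cells and 53.74, 60.51 and 63.70 in Ebf1-KO cells, and the groups overlapped.

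Among transcription factor genes of the B lineage, 13 of 32 listed genes held 24 members. Of these members, 18 were lower and none higher in Ebf1-KO than in WT, beside 51.1% and 3.28% of all bound sites. Between the mutants 9 were lower and 1 higher in Ebf1-KO, beside 12.6% and 9.06% of all bound sites. With TMM scaling 11 were lower in Ebf1-KO than in WT and none higher, beside 29.7% and 20.4%. RNA of the 13 genes was lower in 8 and higher in 2 in Ebf1-KO against WT, beside 14.4% and 40.8% of all genes tested. In Pax5-KO it was lower in 6 and higher in 3, beside 11.9% and 34.7%. The site described for each gene is its most open member in WT. Erg encodes an ETS factor of stem cells and early lymphocytes, and its intron 2 site (chr16:95428321-95428591) had 47.04, 28.20 and 34.44 tags per 10 M in WT, 1.17, 0.91 and 0.32 in Ebf1-KO cells, and 8.11, 11.40 and 14.77 in Pax5-KO cells. The 3 genotypes did not overlap, and the change from Pax5-KO to Ebf1-KO was -2.78 (SE 0.29, adjusted p = 5.7e-13, limma). Pou2f1 encodes the octamer factor OCT1, and its intron 1 site had 41.81, 17.95 and 32.89 in WT, 1.56, 3.63 and 3.84 in Ebf1-KO cells, and 13.05, 7.69 and 12.16 in Pax5-KO cells. In intron 5 of Runx1 (a RUNX factor of blood progenitors) the values were 9.80, 7.69 and 6.47, then 1.95, 1.21 and 3.20, then 8.11, 4.51 and 5.21, so that Pax5-KO overlapped WT and Ebf1-KO did not. The site in Tcf4, an E protein gene, had 30.70, 16.81 and 24.86 in WT and no more than 2.12 in any mutant library.

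The most open sites in Ebf1, Pax5 and Foxo1, 3 core factors of this programme, were weakly open. Ebf1 intron 15 (chr11:45002012-45002282) had 3.27, 7.69 and 3.63 tags per 10 M in WT, 0.39, 1.82 and 1.28 in Ebf1-KO cells, and 4.23, 2.65 and 3.48 in Pax5-KO cells, with a change of -1.09 between the mutants (SE 0.37, adjusted p = 0.025, limma). Pax5 intron 8 had 3.92, 3.13 and 4.92 in WT, 0.39, 1.51 and 0.64 in Ebf1-KO cells, and 1.76, 2.12 and 3.91 in Pax5-KO cells. Foxo1 intron 1 had 3.92, 3.13 and 4.40, then 0.39, 1.21 and 0.32, then 1.06, 2.12 and 2.61. All 3 were called lower in Ebf1-KO than in WT, and with TMM scaling only the Foxo1 site passed (adjusted p = 0.027, against 0.073 for Ebf1 and 0.056 for Pax5, limma). Ebf1 held 2 further members, which passed no comparison. Foxp1 held 4 members, and the most open one had 11.76, 6.84 and 10.10 in WT, 4.67, 7.87 and 4.48 in Ebf1-KO cells, and 3.53, 3.71 and 0.87 in Pax5-KO cells. It was lower in Pax5-KO than in WT and higher in Ebf1-KO than in Pax5-KO. A second Foxp1 site was lower in both mutants than in WT but in neither with TMM scaling, and the other pair passed no comparison under the authors' scaling. The Tcf3 site, in the gene of the E proteins E12 and E47 and with its motif 0.5 bases from the centre, was lower in Ebf1-KO than in WT (log2 fold change -0.97) but not with TMM scaling (adjusted p = 0.59, limma). The Bcl11a and Enpep sites passed no comparison.

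**Figure D4:**
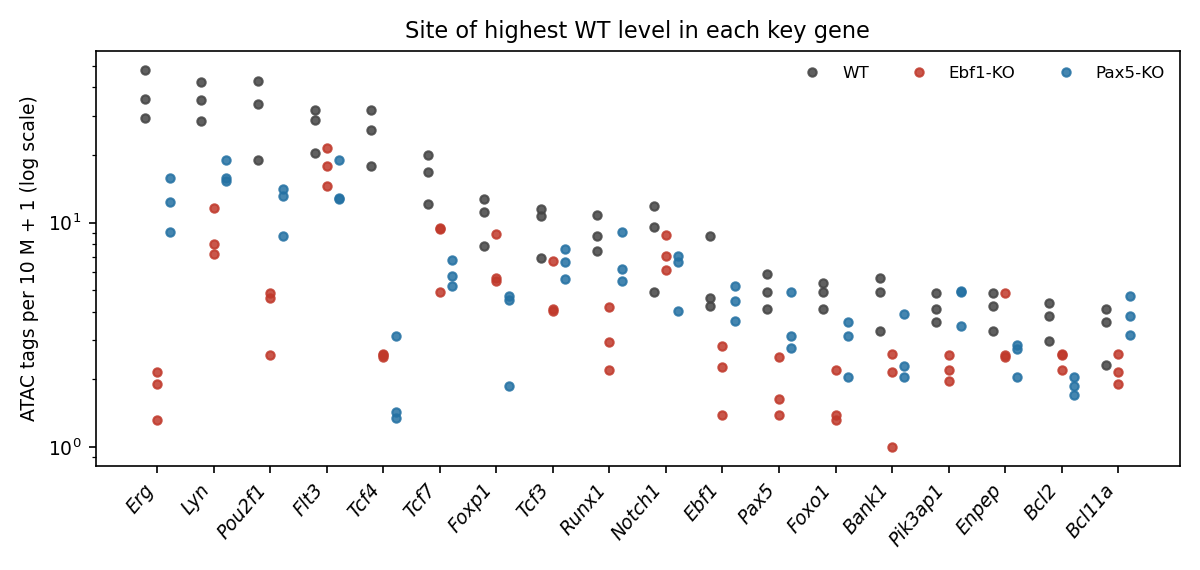
ATAC tags per 10 M plus 1 (y axis, log scale) at the member of highest WT level in each of 18 key genes (x axis); each point is a library, grey for WT, red for Ebf1-KO and blue for Pax5-KO. The Erg site had 0.32 to 1.17 in Ebf1-KO and 28.20 to 47.04 in WT.

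Genes that carry signals from the B-cell receptor and its precursor held 11 members in 9 of 27 listed genes, and 9 of them (81.8%) were lower in Ebf1-KO than in WT, none higher, beside 51.1% lower among all bound sites. With TMM scaling 2 were lower and 2 higher (18.2% each), beside 29.7% lower and 20.4% higher among all bound sites. RNA of the 9 genes was lower in 4 and higher in 1 in Ebf1-KO, and lower in 5 in Pax5-KO. Of all genes tested, 14.4% and 11.9% were lower, and 40.8% were higher in Ebf1-KO. Lyn encodes a kinase of the receptor, and its intron 1 site had 41.16, 27.35 and 34.18 tags per 10 M in WT, 6.23, 10.59 and 7.04 in Ebf1-KO cells, and 17.99, 14.31 and 14.77 in Pax5-KO cells. The genotypes did not overlap, and all 3 comparisons passed, though Pax5-KO against WT did not with TMM scaling (adjusted p = 0.57, limma). The adaptor genes Pik3ap1 and Bank1 held weak sites, at 2.61 to 3.88 and 2.28 to 4.66 in WT. PI3K, inositol and AKT genes held 14 members in 9 of 28 genes. Of the 14, 9 (64.3%) were lower in Ebf1-KO than in WT, beside 51.1% of all bound sites. With TMM scaling 8 (57.1%) were, beside 29.7%. Between the mutants 7 (50.0%) were lower in Ebf1-KO, beside 12.6%, and none was higher in either comparison. RNA of these 9 genes was lower in 5 and higher in 2 in Ebf1-KO, beside 14.4% and 40.8% of all genes tested.

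In the T, NK and innate lymphoid list 7 of 30 genes held 11 sites, and 8 (72.7%) were lower in Ebf1-KO than in WT, beside 51.1% of all bound sites. With TMM scaling 3 (27.3%) were lower and 1 (9.09%) higher, beside 29.7% and 20.4% of all bound sites. The most open site of Tcf7, the gene of the T-lineage factor TCF1, had 18.94, 11.11 and 15.80 tags per 10 M in WT, 3.89, 8.47 and 8.32 in Ebf1-KO cells, and 4.23, 5.83 and 4.78 in Pax5-KO cells. With TMM scaling neither mutant's fall passed. A second, less open Tcf7 site was lower in Ebf1-KO than in WT with either scaling (adjusted p = 0.023 with TMM, limma). Notch1, a receptor that drives T-cell fate, held a site that passed no comparison. Stem, progenitor and myeloid genes held 5 sites in 4 of 29 genes, none called in Ebf1-KO against WT (1 higher with TMM). RNA of the 3 genes tested was higher in each mutant (2 of 3 in Ebf1-KO with TMM). Of all genes tested, 40.8% were higher in Ebf1-KO (30.9% with TMM) and 34.7% in Pax5-KO. Flt3 held 2 of the 5 sites, and these moved in opposite directions in Pax5-KO under the authors' scaling. The more open Flt3 site, in the gene of a progenitor cytokine receptor, had 30.70, 19.37 and 27.71 in WT, 13.63, 16.94 and 20.49 in Ebf1-KO cells, and 17.99, 11.93 and 11.73 in Pax5-KO cells, and was lower in Pax5-KO only without TMM scaling. The other, in intron 15 (chr5:147351906-147352176), had 9.15, 2.28 and 4.66 in WT, 3.89, 4.54 and 2.88 in Ebf1-KO cells, and 13.76, 9.01 and 5.21 in Pax5-KO cells, which overlapped WT. It was called higher in Pax5-KO than in WT (log2 fold change 0.76, adjusted p = 0.048; 1.55 and 0.00011 with TMM, limma). Survival and cell cycle genes held 9 members in 8 of 26 genes (6 lower in Ebf1-KO than in WT; with TMM 1 lower and 2 higher), adhesion and homing genes 13 in 9 of 29 (7 lower and 1 higher; with TMM 4 and 4), and cytokine signalling genes 12 in 6 of 32 (7 lower; with TMM 4). These were 66.7%, 53.8% and 58.3% lower, beside the same 51.1%. With TMM scaling they were 11.1%, 30.8% and 33.3% lower, beside 29.7%, and 22.2%, 30.8% and 0% higher, beside 20.4%. In Ebf1-KO, RNA was lower in 2 and higher in 4 of 7 survival and cell cycle genes tested. It was lower in 2 and higher in 7 of 9 adhesion and homing genes. For cytokine signalling genes it was 2 and 1 of 6. Among all genes tested 14.4% were lower and 40.8% higher in Ebf1-KO. The Bcl2 site was called lower in Pax5-KO, from 1.96, 2.85 and 3.37 to 0.71, 1.06 and 0.87, but not with TMM scaling (adjusted p = 0.43, limma).

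Some genes held many members, and these share a gene and are not replicates. Of all bound sites, 51.1% were lower in Ebf1-KO than in WT, 51.5% lower in Pax5-KO than in WT and 12.6% lower in Ebf1-KO than in Pax5-KO. With TMM scaling these shares were 29.7%, 21.3% and 15.5%, and 20.4% and 13.8% were higher than in WT in Ebf1-KO and Pax5-KO. The counts per gene below stand beside these shares and were not tested against them. Arid1b, a subunit gene of the BAF remodelling complex, held 8 (chr17:5047334-5303759), and its sites did not move alike: 6 were lower in Ebf1-KO than in WT (with TMM 3, and 1 higher), and the change from Pax5-KO to Ebf1-KO ran from -1.60 to 0.59. Msi2, which encodes an RNA-binding protein of progenitors, held 7, all lower in Ebf1-KO than in WT (4 with TMM), 2 lower in Pax5-KO than in WT (with TMM 1, and 1 higher) and 3 lower in Ebf1-KO than in Pax5-KO. Summed over these 7, the WT libraries had 48.35, 36.17 and 55.93 tags per 10 M, Ebf1-KO 8.58, 11.82 and 11.20, and Pax5-KO 25.40, 24.66 and 26.08. In Prkca (protein kinase C alpha), 4 of 5 sites were lower in Ebf1-KO than in Pax5-KO, also with TMM. Of all members tested 22.6% were, and 26.7% with TMM. Among the genes with 5 members, Prkca was named because its summed WT level was the highest. The share of members lower between the mutants also rose with WT level. The part of this choice in the Prkca count was not tested. The intron 3 site at chr11:108173732-108174002 had 1.56, 1.21 and 3.20 in Ebf1-KO cells and 12.35, 14.05 and 16.07 in Pax5-KO cells, while the intron 2 site at chr11:108235266-108235536 had 10.12, 18.45 and 18.25 against 13.40, 15.37 and 12.60, which overlapped. The other genes of this rule, 2900026A02Rik, Auts2, Sh3pxd2a, Galnt2 and Zfp423, held 6 each, with 4 or 5 lower in Ebf1-KO than in WT (1 to 3 with TMM, and 1 higher each in Auts2 and Zfp423).

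RNA of the genes that hold members was measured in other libraries. Of 2112 genes, 2083 were in the RNA table and 1675 had enough reads. In Ebf1-KO against WT 396 of these were lower (23.6%) and 722 higher (43.1%), beside 14.4% and 40.8% of the 12839 genes tested. In Pax5-KO 323 were lower (19.3%) and 625 higher (37.3%), beside 11.9% and 34.7%. The median gene tested changed by 0.31 and 0.28 on the log2 scale. With TMM scaling 585 and 582 of the 1675 were lower and higher in Ebf1-KO cells (34.925% and 34.746%). Of all genes tested, 26.786% and 30.883% were. In Pax5-KO cells TMM scaling gave 522 lower and 522 higher (31.164% each), beside 22.961% and 27.004% of all genes tested. Genes with a site lower in Ebf1-KO than in WT and none higher had lower RNA in 292 of 984 (29.7%) and higher RNA in 382 (38.8%), median 0.18. Genes with no site called had 97 of 650 (14.9%) and 319 (49.1%), median 0.43. With TMM scaling these were 418 and 302, and 158 and 261. Of 29 genes with a site higher and none lower, 3 had lower and 16 higher RNA. These differences were not tested. In the authors' deposited lists of EBF1 peaks near genes that differed in their own comparison, 255 members were near genes higher in WT than in Ebf1-KO, of which 178 (69.8%) were lower in Ebf1-KO and 4 higher (122 and 15 with TMM). Near genes lower in WT were 264 members, of which 115 (43.6%) were lower and 11 higher (54 and 45 with TMM), beside 51.1% and 3.28% of all bound sites.

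RNA and site moved together in some of these genes and apart in others. Erg RNA was 2315, 2007 and 2144 reads per 10 M in WT, 5.50, 4.76 and 2.76 in Ebf1-KO cells, and 1086, 1233 and 1690 in Pax5-KO cells, so both the gene and its intron 2 site were lowest in Ebf1-KO and between in Pax5-KO. Foxo1 RNA was 1581, 2583 and 2730, then 34.1, 34.4 and 32.1, then 530, 669 and 777. Acvr1, a receptor kinase of the BMP pathway, had 35.3, 48.3 and 44.1 in WT and no more than 2.92 in any mutant library, and its site fell in both. Il33 had 17.9, 22.9 and 23.8 in WT, 0, 0 and 0.172 in Ebf1-KO cells, and 81.5, 110 and 116 in Pax5-KO cells, and its site was lower in Ebf1-KO than in Pax5-KO. By contrast Lyn and Stk11ip RNA passed no comparison while their sites fell in Ebf1-KO (with TMM scaling Lyn RNA was lower in both mutants, by 0.26 and 0.58 on the log2 scale, and Stk11ip in Ebf1-KO; with the replicate number as a block Lyn RNA was lower in Pax5-KO, adjusted p = 0.0080, limma). Wdfy3 RNA rose from 128, 96.2 and 88.7 to 465, 464 and 493 in Ebf1-KO cells and 474, 545 and 567 in Pax5-KO cells, while its intron 15 site fell in both. Flt3 RNA rose from 9.25, 9.16 and 6.98 to 2283, 2224 and 2576 in Ebf1-KO cells and 933, 865 and 953 in Pax5-KO cells, and Tcf7 RNA from 3.37, 3.52 and 2.38 to 122, 110 and 118 in Ebf1-KO. In Ebf1-KO none of the members in Flt3 and Tcf7 was called higher, and in Pax5-KO 1 of the 2 Flt3 members was. Rgs3 RNA rose with its intron 10 site, the only 1 of its 3 members called higher, from 1.12, 1.06 and 0.476 to 46.8, 85.4 and 77.1 in Ebf1-KO. Asb2 RNA went from 24.96, 17.96 and 19.03 to 0 in all Ebf1-KO libraries while its intron 2 site rose there and its intron 1 site fell. Zfp804a was listed at 0 reads in all 9 libraries, and its site was one of the 106 members at or above 30 tags per 10 M in WT.

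**Figure D5:**
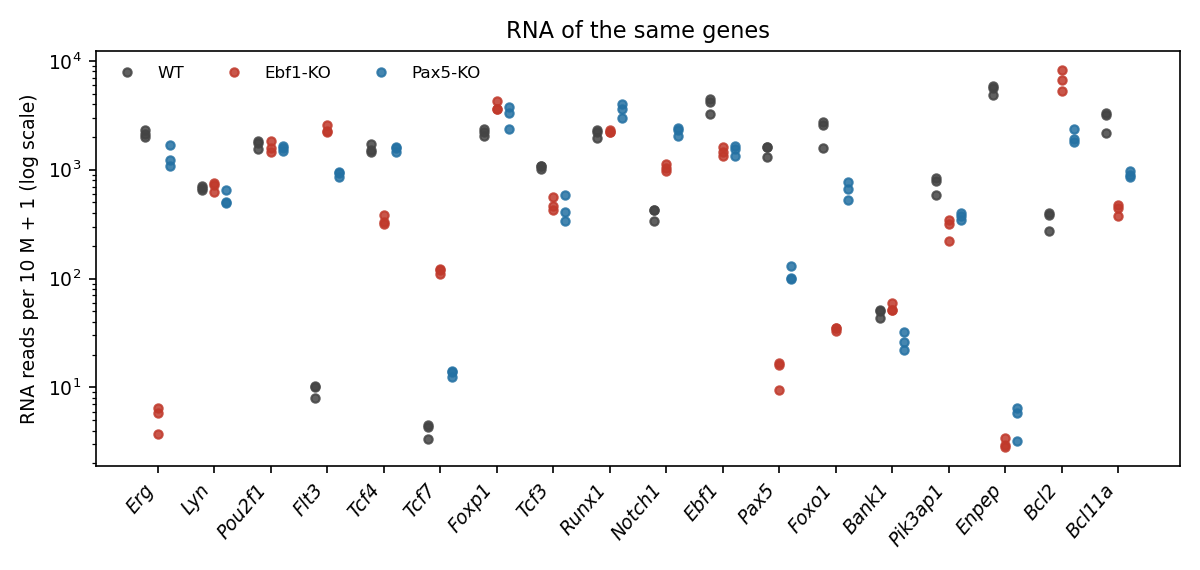
RNA reads per 10 M plus 1 (y axis, log scale) for the 18 key genes that hold members (x axis, same order as the plot of their sites); each point is a library, grey for WT, red for Ebf1-KO and blue for Pax5-KO. Erg lay at 2.76 to 5.50 in Ebf1-KO, and Flt3 at 6.98 to 9.25 in WT.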

How the data were processed

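The authors deposited ATAC tag signal at bound sites, scaled to 10 M tags per library per the file headers, and a peak score for each ChIP peak. The submitters' processing notes name Bowtie2, TopHat, HOMER, edgeR and DESeq2 and the build mm10; versions were not given in the sources used here. The deposited RNA signal is exon reads per gene scaled to 10 M, per the file headers, not divided by length. The header totals gave back whole tags for 100% of values within 0.1, and the low RNA values gave whole reads likewise; RNA libraries held 15.6 to 63.6 M exon reads. All per-library columns matched a sample.

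Values were tested as log2(value + 1) with limma 3.58.1 (trend) in R 4.3.3 over all 9 libraries of an assay, sites with at least 10 tags in all, Benjamini-Hochberg adjustment over all bound sites or genes and a threshold of 0.05. Fold changes on this scale understate low sites. edgeR 4.0.16 and DESeq2 1.42.0 on recovered reads, other scalings, filters, pseudocounts, distance limits and libraries left out were alternatives. Scripts were tested on simulated data. Gene names of 2110 sites came from the files and of 649 from RefSeq (2 had none). 14372 of 14377 windows were on assembled chromosomes and were searched for motifs. Deviations of same-numbered RNA libraries correlated at 0.116 to 0.439 (other pairs -0.366 to 0.030), so the numbers were taken to pair RNA samples. Those of ATAC libraries showed no such difference. The main RNA fit leaves this pairing out, so RNA counts and calls are without it unless a block is named. Blocking moved no count of RNA calls over all genes holding members by over 1.5 times. Among named genes it added 1 call in Ebf1-KO against WT and 3 in Pax5-KO against WT.

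Members and lists were chosen with earlier results of these data known. Named sites were the member of highest WT level in each key gene, the 6 largest falls and rises per comparison (called, groups not overlapping, at least 10 tags per 10 M in the higher group), the 8 genes with most members, and the 4 members of highest score and of highest WT level. Ties in the number of members were broken by the summed WT level. Some results are not reported here.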

Additional observations from a re-analysis of the deposited data

How the results depend on the processing

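The count of members lower in Ebf1-KO than in Pax5-KO stayed within 1.5 times of 622 under every alternative run. The comparisons with WT depended on the scaling. For Ebf1-KO against WT, members lower and higher were 876 and 305 with TMM, 893 and 330 with edgeR, 686 and 264 with DESeq2 and 559 and 565 with quantile normalization. edgeR with the authors' scaling, an alternative chosen after seeing the data, stayed within 1.5 times of the main counts. For Pax5-KO against WT they were 347 and 475, 364 and 556, 263 and 344, and 287 and 698. Requiring a mean of at least 5 tags per 10 M, which leaves fewer sites tested, gave 815 lower in Ebf1-KO, and 650 lower and 44 higher in Pax5-KO. Genes with lower RNA in Pax5-KO were 522 with TMM, 515 with edgeR and 532 with DESeq2. Apart from the scaling itself, the cause was not tested. The motif share was 43.4% in 100 bases, 59.6% in 300 bases, 58.7% for CCCNNGGG and 30.2% for the palindrome.

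Leaving out 1 library gave 1375 to 1546 lower and 35 to 54 higher in Ebf1-KO against WT, 846 to 1155 and 56 to 84 in Pax5-KO against WT (56 without the first Pax5-KO library), and 496 to 666 and 39 to 106 between the mutants. RNA counts were 372 to 418 lower and 628 to 766 higher in Ebf1-KO, and 284 to 337 and 515 to 675 in Pax5-KO. With the replicate block, members lower and higher were 1521 and 49, 1071 and 85, and 633 and 85, and RNA of their genes 439 and 852 in Ebf1-KO cells and 386 and 779 in Pax5-KO cells. Same-numbered ATAC libraries correlated at -0.052 to 0.110 in their deviations, and other pairs at -0.138 to 0.102. At few tags per site this does not show whether the numbers mark a shared batch of ATAC libraries.

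Directions of named sites turned only with the scaling; values not called under either setting were counted as having no direction. In Ebf1-KO against WT, TMM, edgeR and DESeq2 gave 0.12, 0.12 and 0.17 for Whrn, 0.62, 0.61 and 0.67 for Arrdc3, and 0.84, 0.88 and 0.95 for Pcca. Quantile normalization gave 0.096 for Pik3ap1, 0.27 for Tcf3, 0.046 for Tcf7, 0.95 for Notch1, 0.88 for Slc9a9, 0.013 for Whrn, 0.87 for Lgr6 and 0.83 for Pcca. In Pax5-KO against WT, TMM, edgeR, DESeq2 and quantile normalization gave 0.59, 0.65, 0.64 and 0.63 for Phactr3, 0.089, 0.11, 0.11 and 0.055 for Camk2d, 0.74, 0.81, 0.80 and 0.80 for Fmn2, 0.14, 0.21, 0.20 and 0.36 for Asb2, 0.036, 0.048, 0.046 and 0.13 for Flt3, and 0.15, 0.18, 0.17 and 0.13 for Arrdc3, and quantile normalization 0.079 for Neb. For RNA in Ebf1-KO, TMM, edgeR and DESeq2 gave -0.25, -0.24 and -0.25 for Runx1 and -0.26, -0.26 and -0.27 for Lyn. Sites with under 10 tags per library limit single calls.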
